A study of Mus musculus with 19 samples.

Results

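The 48 genes described here encode the blood plasma cascades of complement, clotting and fibrinolysis. They were picked by name from a table of 52110 named entries of mouse liver RNA-seq, 24 for complement and 24 for clotting and the dissolving of clots, and all 48 were found. The table held 19 samples of wild-type mouse liver: 4 from mice on the CDAHFD diet given remote limb ischemic conditioning (CDAHFD RIC), 5 from mice on CDAHFD given the sham procedure (CDAHFD sham), 5 from mice on normal chow with conditioning (NC RIC) and 5 on normal chow with the sham procedure (NC sham). CDAHFD is a high-fat diet that lacks choline and has defined amino acids, and it is used to produce fatty, inflamed livers. In remote conditioning the blood flow of a limb is stopped and restored in cycles. The strain, sex, age, time on diet and number of conditioning sessions are not stated in the labels. The samples are called replicates without a statement that each came from its own mouse, so a p-value measures only sample-to-sample spread, which may be technical.

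Complement is a set of plasma proteins that mark and lyse cells. The classical pathway starts with C1q, the lectin pathway with mannose-binding lectins, and the alternative pathway with factor B, factor D and properdin. All of them cleave C3, after which C5 (encoded by Hc in the mouse) joins with later components to form the membrane attack complex. Clotting runs from tissue factor or the contact system through a chain of proteases to thrombin, which turns fibrinogen into fibrin. Plasmin, made from plasminogen by its activators, dissolves fibrin. Hepatocytes make most of these proteins, while C1q comes mainly from macrophages, properdin from leukocytes, factor D from fat cells, and plasminogen activators from several other cell types.

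Levels are the authors' FPKM (fragments scaled by transcript length and by sequencing depth), which can be compared between genes. Differences are in log2(FPKM + 1) with their standard error (SE) from limma fitted to all 19 samples, and a gene was called at a Benjamini-Hochberg adjusted p under 0.05 over the 10577 genes averaging 1 FPKM or more. Means are given with SD (n = 4 for CDAHFD RIC, n = 5 for each of the others). Of the 48 genes 46 reached that mean, and Cfd and Plat did not. Estimated depth was 15900000 to 26400000 reads per sample. Hepatocyte markers took 8.89% to 11.3% of all FPKM in CDAHFD RIC, 7.95% to 9.75% in CDAHFD sham, 12.3% to 14.6% in NC RIC and 10.3% to 12.3% in NC sham. The CDAHFD sham samples 2 and 5 stood apart from the other CDAHFD sham samples on the fourth principal component (2.26% of the variance), at 20.6 and 16.6 against -9.3 to -3.8. CDAHFD RIC sample 1 was the highest of its group in many of the hepatocyte-made genes below, which was seen after the values were examined. Calls that changed without these samples are given beside the results.

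On CDAHFD the cascades did not move as a block. In sham mice 11 of the 46 tested genes rose and 20 fell, against 63.9% called higher among all tested genes and 10.3% called lower. The 23 tested complement genes divided evenly, with 8 higher and 8 lower, while among the 23 clotting and fibrinolysis genes 3 rose and 12 fell. Of those 3, Plau and Plaur reached the mean for testing only through the CDAHFD groups. The median difference was -0.08 for complement and -0.31 for clotting and fibrinolysis, beside 0.45 for all tested genes. The samples of the groups did not overlap for 27 of the 46 genes, against 59.3% of all genes. In conditioned mice the diet difference was called higher in 14 and lower in 18 of the 46 genes, against 63.6% and 6.68% of all genes, with 7 higher and 9 lower in each arm. The 7 clotting and fibrinolysis genes called higher there again include Plau and Plaur, with the same limit. The median of all genes depends on how the samples are scaled to each other: the sham diet difference of 0.45 became 0.50 when all samples were given 1 sum, 0.09 for median-ratio scaling, and -0.04 after quantile normalization. The share of called genes that were higher was 86.1% as deposited, and 88.2%, 59.6% and 47.6% under those scalings in the same order. With median-ratio scaling 4 complement genes rose and 14 fell, and 2 clotting and fibrinolysis genes rose and 19 fell, so a diet difference between 0 and about 0.45 has no fixed direction here. Under every scaling and every left-out sample tried, C1qa, C1qb, C1qc and Cfp were called higher in sham mice. Mbl1, Mbl2, the 6 terminal components among the 48, F11, Klkb1, F7, F9, F13b, Fgb, Fgg, Serpind1, Plg and Cpb2 were likewise called lower.

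**Figure D1:**
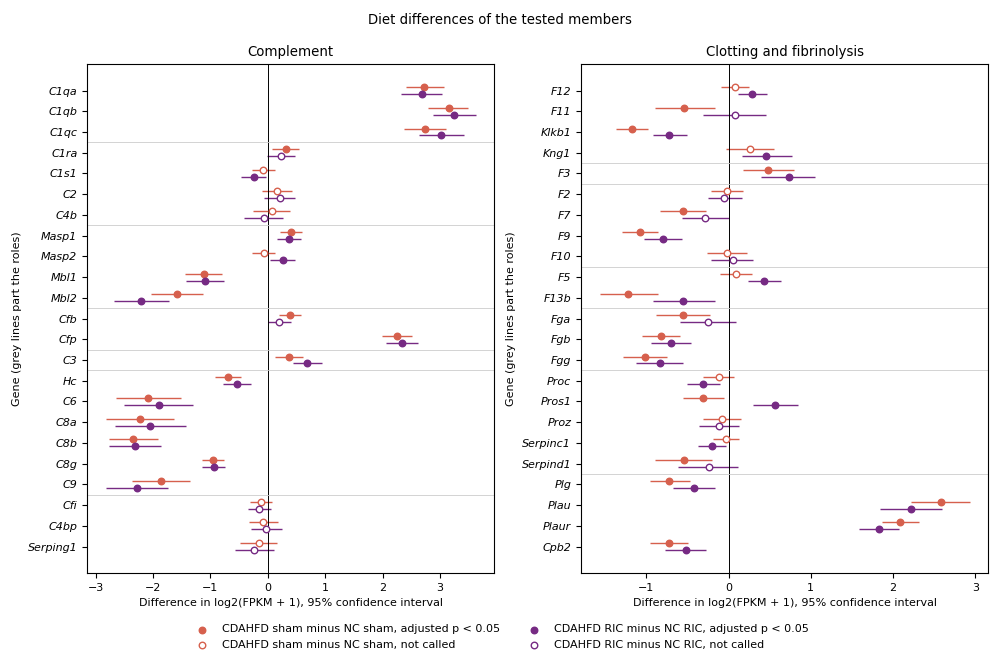
Diet differences of the 46 tested genes in log2(FPKM + 1), by role, for CDAHFD sham minus NC sham and CDAHFD RIC minus NC RIC; points are estimates, bars are 95% confidence intervals and filled points passed an adjusted p under 0.05. The 3 C1q chains and Cfp stand far to the right, the terminal pathway to the left, and of the 23 clotting and fibrinolysis genes 12 are filled left of 0 in sham mice and 9 in conditioned mice, against 3 and 7 right of 0. Plau and Plaur, among both the 3 and the 7, reached the mean for testing only through the CDAHFD groups.

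The C1q chains, which form the recognition part of the classical pathway, rose most among the complement genes. C1qb had 98.3, 163, 86 and 135 FPKM in CDAHFD RIC, 109.6, 110.4, 140.3, 117 and 113 in CDAHFD sham, 13.5, 9.17, 10.3, 16.5 and 9.08 in NC RIC, and 10.7, 13.2, 13.5, 11.9 and 12.9 in NC sham. All CDAHFD samples lay far above all NC samples. The difference was 3.15 (SE 0.165, adjusted p = 6.74e-12) in sham mice and 3.25 (SE 0.175, adjusted p = 1.62e-11) in conditioned mice, a ratio of mean FPKM of 9.49 and 10.3. C1qa had 73.3, 114, 65.7 and 91.7 FPKM in CDAHFD RIC, 88.6, 80.5, 126, 105 and 88.6 in CDAHFD sham, 14, 9.93, 10.5, 17.4 and 11.1 in NC RIC, and 12.1, 13.1, 12.8, 16.4 and 14.2 in NC sham, a difference of 2.73 (SE 0.161, adjusted p = 3.44e-11) in sham mice. C1qc had 47.9, 87.3, 47.7 and 64.9 FPKM in CDAHFD RIC, 52.9, 61.5, 74.5, 60.7 and 56.8 in CDAHFD sham, 8.42, 5, 6.66, 9.31 and 4.32 in NC RIC, and 7.35, 8.8, 8.18, 7.92 and 9.02 in NC sham, a difference of 2.74 (SE 0.176, adjusted p = 1.05e-10). The 3 genes lie within 18.7 kb at chr4:136880129-136898803 (GRCm38), on the minus strand. The ratio of C1qb to C1qa also moved, with 1.39 ± 0.0782 in CDAHFD RIC, 1.22 ± 0.108 in CDAHFD sham, 0.926 ± 0.0654 in NC RIC and 0.917 ± 0.129 in NC sham, and the ratios of all CDAHFD samples (1.12 or more) were above those of all NC samples (1.06 or less). Markers of macrophages and monocytes moved with the C1q chains: 8 of 8 tested of 10 listed rose in CDAHFD sham mice against NC sham mice, and their summed level was 252.6 to 608 FPKM in CDAHFD RIC, 399 to 589 in CDAHFD sham, 19.7 to 35.0 in NC RIC and 22.6 to 33.3 in NC sham. Of 6 Kupffer cell markers 5 rose in the same comparison, with summed levels of 256 to 503 FPKM in CDAHFD RIC, 172 to 285 in CDAHFD sham, 32.8 to 61.4 in NC RIC and 41.8 to 60.3 in NC sham. The share of all tested genes called higher there was 63.9%. Some of these markers may have reached the mean for testing only through the CDAHFD groups. The part of macrophages and Kupffer cells in the C1q difference was not tested, and in bulk liver more cells of a type and more RNA per cell cannot be told apart.

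The proteases and substrates that act after C1q moved little. C1ra, a protease of the C1 complex, was called higher in CDAHFD sham mice by 0.31 (SE 0.109, adjusted p = 0.0153), at 49.9 ± 8.12 FPKM in CDAHFD RIC, 57.3 ± 7.25 in CDAHFD sham, 42.1 ± 4.01 in NC RIC and 45.9 ± 4.21 in NC sham, and this difference was -0.15 with median-ratio scaling. Its partner protease C1s1 had 102 ± 19.9 FPKM in CDAHFD RIC, 109.9 ± 7.98 in CDAHFD sham, 120.2 ± 6.75 in NC RIC and 116 ± 6.24 in NC sham, and it was called lower only between CDAHFD RIC and NC RIC (-0.25, adjusted p = 0.034), a call lost in 10 of 30 alternatives (adjusted p up to 0.697, with a common sum). C2 and C4b, whose products form the C3 convertase, were not called in any comparison with the values as deposited, and C4b was called lower in CDAHFD sham with median-ratio scaling (-0.4). C2 had 19.6 ± 2.9 FPKM in CDAHFD RIC, 20.1 ± 2.85 in CDAHFD sham, 16.8 ± 2.29 in NC RIC and 18 ± 2.74 in NC sham. C4b had 53.2 ± 14.2 FPKM in CDAHFD RIC, 61.3 ± 9.84 in CDAHFD sham, 54.6 ± 6.21 in NC RIC and 58.5 ± 9.48 in NC sham. Reads of C4b and its near copy C4a can be divided between copies in counting, as can those of C1ra and C1s1 and their near copies. The levels of these genes are therefore uncertain. C2 shares its strand and part of its span with Gm20547, a protein-coding gene, so its level is uncertain too.

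In the lectin pathway the recognition proteins fell. Mbl1, a mannose-binding lectin, had 79, 58.3, 47.9 and 45.4 FPKM in CDAHFD RIC, 65, 50.5, 62.7, 76.2 and 58.7 in CDAHFD sham, 135, 117, 120.2, 103 and 135 in NC RIC, and 149.9, 137, 97, 149 and 155 in NC sham. Mbl2, the other such lectin, had 162, 54.1, 65.2 and 69.2 FPKM in CDAHFD RIC, 119, 83.2, 75.7, 114 and 87.7 in CDAHFD sham, 360.2, 376, 404, 397 and 324 in NC RIC, and 235, 248, 352, 317 and 289.8 in NC sham. In both genes every CDAHFD sample lay below every NC sample. The difference in sham mice was -1.12 (SE 0.152, adjusted p = 2.29e-06) for Mbl1 and -1.58 (SE 0.216, adjusted p = 2.4e-06) for Mbl2, and in conditioned mice -1.1 (SE 0.161) and -2.21 (SE 0.229). The proteases that bind these lectins were not called lower with the values as deposited. Masp1 had 10.1 ± 1.79 FPKM in CDAHFD RIC, 10.1 ± 0.874 in CDAHFD sham, 7.48 ± 0.529 in NC RIC and 7.42 ± 0.621 in NC sham, called higher in sham mice at 0.4 (SE 0.094, adjusted p = 0.000781), with the opposite sign under median-ratio scaling (-0.02) and quantile normalization (-0.08). Masp2 had 23.2 ± 2.55 FPKM in CDAHFD RIC, 22.8 ± 2.87 in CDAHFD sham, 19.2 ± 1.33 in NC RIC and 24 ± 2.57 in NC sham, and its difference was -0.07 (adjusted p = 0.503) in sham mice and 0.26 (adjusted p = 0.0315) in conditioned mice, which became -0.52 and -0.19 with median-ratio scaling. The second call was lost in 8 of 30 alternatives (adjusted p up to 0.191).

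Of the alternative pathway and C3, properdin (Cfp), which stabilises the convertase, rose in every scaling. Cfp had 21.6, 38.8, 24.9 and 29.3 FPKM in CDAHFD RIC, 28.6, 26.4, 32.8, 28.3 and 30.9 in CDAHFD sham, 4.92, 4.46, 4.55, 6.14 and 3.78 in NC RIC, and 5, 5.8, 5.59, 5.32 and 5.21 in NC sham. The groups on different diets did not overlap, and the difference was 2.25 (SE 0.125, adjusted p = 1.42e-11) in sham and 2.34 (SE 0.132, adjusted p = 3.04e-11) in conditioned mice. Factor B (Cfb), the protease of the convertase, had 376, 287, 266 and 311 FPKM in CDAHFD RIC, 337, 299, 321, 379 and 332 in CDAHFD sham, 237, 281, 300.3, 247 and 277 in NC RIC, and 257, 247, 255, 264 and 247 in NC sham. Each CDAHFD sham sample lay above every NC sham sample, with a difference of 0.39 (SE 0.0921, adjusted p = 0.00092), while CDAHFD RIC and NC RIC overlapped (0.2, adjusted p = 0.074). C3, the protein all pathways cleave, had 1043, 823, 663 and 869 FPKM in CDAHFD RIC, 823, 592, 724, 827 and 705 in CDAHFD sham, 537, 462, 587, 476 and 535 in NC RIC, and 518, 639, 569.7, 596 and 513 in NC sham. CDAHFD sham and NC sham overlapped in C3 although the difference of 0.37 was called (SE 0.117, adjusted p = 0.00847), and CDAHFD RIC lay wholly above NC RIC (0.69, SE 0.124, adjusted p = 6.96e-05). With median-ratio scaling the sham diet difference was -0.08 for Cfb and -0.1 for C3. That of C3 in conditioned mice was 0.22 by limma (adjusted p = 0.177). Cfb shares its strand and part of its span with Gm20547, as C2 does, so its level is uncertain. Cfd, the protease that activates factor B and a gene known for its level in fat, was hardly detected: it had 0, 0, 0 and 0 FPKM in CDAHFD RIC, 0.134, 0, 0, 0 and 0 in CDAHFD sham, 0.0508, 0.0583, 0.414, 0.0549 and 0.134 in NC RIC, and 0.125, 0, 0.371, 0.162 and 0.766 in NC sham. It was not tested.

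The terminal pathway showed the most uniform fall of any role. All 6 of its genes, Hc, C6, C8a, C8b, C8g and C9, fell in sham and in conditioned mice, and in each of them every CDAHFD sample lay below every NC sample of the same procedure. Of all tested genes 10.3% fell in sham mice and 6.68% in conditioned mice. Summed, the 6 genes took 0.0725 ± 0.0287% of all FPKM in CDAHFD RIC and 0.0648 ± 0.00867% in CDAHFD sham. Their share was 0.181 ± 0.0139% in NC RIC and 0.181 ± 0.0122% in NC sham.

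C8b had 46.4, 24.5, 20.9 and 13.8 FPKM in CDAHFD RIC, 25.4, 25.2, 18.7, 25.4 and 26.2 in CDAHFD sham, 115, 121, 115, 125 and 146 in NC RIC, and 143, 119.9, 111, 114 and 146 in NC sham. This was the largest fall of any of the 46 genes in sham mice, -2.35 (SE 0.203, adjusted p = 6.27e-09), or 5.25-fold lower by mean FPKM, and it was -2.32 (SE 0.215, adjusted p = 2.51e-08) in conditioned mice. C8a had 89.5, 30.4, 23 and 17.6 FPKM in CDAHFD RIC, 33.1, 31.8, 17.9, 30.5 and 26.5 in CDAHFD sham, 147, 147, 123, 138 and 137 in NC RIC, and 152, 123, 122, 128 and 137 in NC sham. Among the CDAHFD samples CDAHFD RIC sample 1 stood highest, and the difference was -2.23 (SE 0.281, adjusted p = 8.93e-07) in sham and -2.05 (SE 0.298, adjusted p = 7.41e-06) in conditioned mice. C8g, the light chain joined to the C8a product, fell less, with 106, 70.8, 88.6 and 77.4 FPKM in CDAHFD RIC, 85.8, 82.8, 79.4, 94.7 and 82.5 in CDAHFD sham, 148, 173, 169, 159 and 171 in NC RIC, and 177, 166, 159, 173 and 157 in NC sham and a sham difference of -0.96 (SE 0.0918, adjusted p = 2.42e-08). The ratio of C8b to C8g was 0.300 ± 0.116 in CDAHFD RIC, 0.284 ± 0.0328 in CDAHFD sham, 0.761 ± 0.0707 in NC RIC and 0.764 ± 0.107 in NC sham, and its CDAHFD values (0.439 or less) did not reach its NC values (0.659 or more). The genes of the chains C8a and C8b lie within 110.1 kb on chromosome 4, C8b at chr4:104766317-104804548 on the plus strand and C8a at chr4:104815679-104876398 on the minus strand, while C8g lies at chr2:25498651-25501719.

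C9, which forms the pore of the membrane attack complex, had 152, 73.8, 43.9 and 41.7 FPKM in CDAHFD RIC, 83.5, 90.0, 62.5, 85.5 and 92.6 in CDAHFD sham, 326, 406, 253, 349 and 349 in NC RIC, and 299.5, 273, 301, 332 and 299 in NC sham. The difference was -1.86 (SE 0.244, adjusted p = 1.48e-06) in sham mice and -2.29 (SE 0.259, adjusted p = 3.45e-07) in conditioned mice. C6, which binds C5b, had 17.6, 7.91, 5.73 and 5.08 FPKM in CDAHFD RIC, 14, 8.26, 5.91, 7.11 and 10.6 in CDAHFD sham, 35.8, 46.3, 23.9, 27.8 and 34.4 in NC RIC, and 56.2, 37.7, 30.1, 36.1 and 48 in NC sham, and fell by 2.09 (SE 0.271, adjusted p = 1.31e-06) in sham mice. Hc, the mouse gene of C5, had 94.9, 77.3, 68.5 and 69.6 FPKM in CDAHFD RIC, 70.4, 83.5, 64.8, 68.2 and 88.7 in CDAHFD sham, 102, 108, 116, 109 and 128 in NC RIC, and 143, 126, 106, 109 and 122 in NC sham. It fell least of these 6 terminal genes, with -0.69 (SE 0.111, adjusted p = 1.7e-05) in sham and -0.54 (SE 0.117, adjusted p = 0.000477) in conditioned mice. The ratio of C3 to Hc was 10.9 ± 1.16 in CDAHFD RIC, 10.01 ± 2.32 in CDAHFD sham, 4.62 ± 0.492 in NC RIC and 4.74 ± 0.798 in NC sham, and the lowest CDAHFD value of 7.08 was above the highest NC value of 5.44. Reads of Hc, C8a and C8g could include reads of genes that overlap them on the opposite strand (Gm13449, Gm17662 and Fbxw5), since it was not stated whether strand was kept. The same limit holds for C1s1, C2, Masp1, Masp2, F5, Fgg, Serpinc1, Serpind1 and Plg, which have such overlaps too. C3, F5, Serpinc1 and Cpb2 overlap other annotated genes on their own strand.

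The promoters of 4 of the terminal genes that fell together are given from 250 bases before to 50 bases after the RefSeq start (RefSeq, GRCm38.p6 build, strand of the gene) and are shown because these genes fell together. They are C8b at chr4:104766067-104766366 (plus), C8a at chr4:104876349-104876648 (minus), C9 at chr15:6445096-6445395 (plus) and C6 at chr15:4726960-4727259 (plus). Capitals mark any match, on either strand, to 7 short motifs: CTGGGAA (interleukin 6 response element), TTCNNNGAA (STAT), TTNNGCAA (C/EBP), CAAAGTCCA (HNF4), GTTAAT (HNF1), TGANTCA (AP-1) and GGANTTCC (NF-kB).
C8b: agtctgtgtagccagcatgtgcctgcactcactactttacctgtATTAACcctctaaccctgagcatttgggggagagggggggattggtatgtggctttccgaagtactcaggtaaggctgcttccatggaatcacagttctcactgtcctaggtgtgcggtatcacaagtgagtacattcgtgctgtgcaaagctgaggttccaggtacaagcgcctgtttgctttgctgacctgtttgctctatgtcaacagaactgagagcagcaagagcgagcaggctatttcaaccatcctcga
C8a: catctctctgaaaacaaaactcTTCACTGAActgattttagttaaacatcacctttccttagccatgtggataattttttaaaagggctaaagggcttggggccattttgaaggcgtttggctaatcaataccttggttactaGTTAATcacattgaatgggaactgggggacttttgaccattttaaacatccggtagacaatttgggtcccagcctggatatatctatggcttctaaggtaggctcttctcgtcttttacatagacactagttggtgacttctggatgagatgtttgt
C9: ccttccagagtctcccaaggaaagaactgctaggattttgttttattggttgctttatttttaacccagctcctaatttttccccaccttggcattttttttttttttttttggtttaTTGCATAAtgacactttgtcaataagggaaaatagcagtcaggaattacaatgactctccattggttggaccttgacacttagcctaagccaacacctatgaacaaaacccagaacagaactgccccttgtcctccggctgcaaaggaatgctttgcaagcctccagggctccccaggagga
C6: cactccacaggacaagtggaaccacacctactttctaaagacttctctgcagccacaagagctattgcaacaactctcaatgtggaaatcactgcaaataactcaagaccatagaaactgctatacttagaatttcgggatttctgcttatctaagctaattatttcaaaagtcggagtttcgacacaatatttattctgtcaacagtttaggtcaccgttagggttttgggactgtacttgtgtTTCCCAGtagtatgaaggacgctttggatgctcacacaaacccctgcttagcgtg
C8b holds the HNF1 motif alone, C8a the HNF1 and STAT motifs, C9 the C/EBP motif alone and C6 the interleukin 6 response element alone. A match is a description of letters and not a binding site. RefSeq gave 38 promoters for 36 of the 48 genes. Of these promoters 28.9% held GTTAAT, against 7.1% of all 32851 promoters, 31.6% held TTNNGCAA against 10.8%, 18.4% held TTCNNNGAA against 8.3%, and 15.8% held CTGGGAA against 11.1%. TGANTCA was in 13.2% against 7.81%, GGANTTCC in 2.63% against 4.77%, and CAAAGTCCA in 0 of the 38 promoters against 0.475%.

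The 3 inhibitors of complement that the liver secretes were not called on diet with the values as deposited. Factor I (Cfi), which cleaves C3b and C4b, had 264, 209.6, 213 and 207 FPKM in CDAHFD RIC, 185, 248, 197, 226 and 238 in CDAHFD sham, 227, 239, 278, 234 and 257 in NC RIC, and 237, 237, 243, 234 and 232 in NC sham. These ranges overlapped in every pair of groups, and the sham diet difference was -0.12 (95% confidence interval -0.31 to 0.07). C4bp, a cofactor of factor I, had 96 ± 23 FPKM in CDAHFD RIC, 86.7 ± 12.6 in CDAHFD sham, 96.5 ± 6.95 in NC RIC and 90.8 ± 5.44 in NC sham, with a sham diet difference of -0.08 (95% confidence interval -0.33 to 0.18). Serping1, the C1 inhibitor, had 119 ± 17.5 FPKM in CDAHFD RIC, 136 ± 7.47 in CDAHFD sham, 145 ± 46.6 in NC RIC and 153 ± 17.6 in NC sham, with a sham diet difference of -0.16 (95% confidence interval -0.48 to 0.16). Sample 3 of NC RIC, at 222 FPKM, stood above the other 4 of its group in Serping1. With median-ratio scaling all 3 were called lower in CDAHFD sham (-0.59, -0.54 and -0.63). Cfi was also called lower in sham mice without CDAHFD sham samples 2 and 5 (-0.23, adjusted p = 0.041) and in conditioned mice without CDAHFD RIC sample 1 (-0.23, adjusted p = 0.0385).

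**Figure D2:**
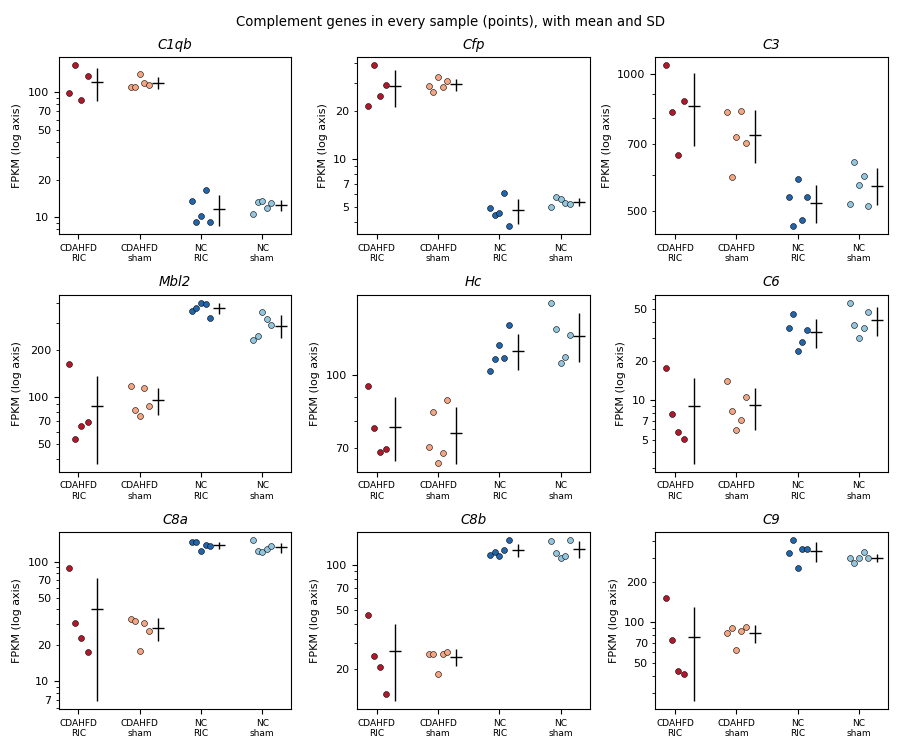
FPKM of 9 complement genes in every sample, on a log axis, with mean and SD beside the points. C1qb and Cfp are high in both CDAHFD groups, Mbl2, C6, C8a, C8b and C9 are low there, and CDAHFD RIC sample 1 is the highest CDAHFD RIC point for Mbl2, Hc, C6, C8a, C8b and C9.

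Other complement genes, 21 of 27 listed being tested, moved both ways on diet in sham mice. There 11 rose, 7 fell and 3 were not called, with a median of 0.42. The share of all genes was 63.9% called higher and 10.3% lower. The anaphylatoxin receptors rose, C3ar1 by 2.63 (adjusted p = 3.09e-11) and C5ar1 by 2.28 (adjusted p = 6.72e-10), and so did Itgb2, the beta chain of the leukocyte complement receptors (3.28, adjusted p = 1.58e-11). Clusterin (Clu), which binds terminal complexes, rose by 1.17 (adjusted p = 2.99e-07). Vitronectin (Vtn) was not called (0.15, adjusted p = 0.321). The levels of C3ar1, C5ar1 and Itgb2 moved with the macrophage and monocyte markers given above, and Itgb2 is itself a gene of leukocytes. The part of those cells was not tested.

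In the contact system, which starts clotting on surfaces, plasma prekallikrein fell and the others did not move together. Klkb1, its gene at chr8:45266689-45294859 (minus strand), had 47.9, 34.2, 32.9 and 38.2 FPKM in CDAHFD RIC, 29.5, 27.3, 28.9, 31 and 26.9 in CDAHFD sham, 61, 64.9, 68.7, 56.1 and 64.3 in NC RIC, and 72.7, 64.2, 62.3, 70.4 and 61.8 in NC sham. Every CDAHFD sample lay below every NC sample, and the difference was -1.18 (SE 0.0922, adjusted p = 1.6e-09) in sham and -0.72 (SE 0.0978, adjusted p = 3.51e-06) in conditioned mice. F11, the factor XI gene that lies with Klkb1 within 53.7 kb, had 18.6, 10.8, 9.99 and 13.9 FPKM in CDAHFD RIC, 15.7, 10.5, 11.9, 10.6 and 13.2 in CDAHFD sham, 14.8, 9.07, 11.9, 13.8 and 12.4 in NC RIC, and 23.3, 19.8, 21.4, 13.1 and 15.5 in NC sham. It was lower in CDAHFD sham than in NC sham (-0.54, SE 0.174, adjusted p = 0.00954) with overlap, and was not called in conditioned mice (0.08, adjusted p = 0.715). F12, the factor XII gene, had 119.9, 124, 125 and 116 FPKM in CDAHFD RIC, 139, 111, 115, 110.2 and 108 in CDAHFD sham, 102, 92.5, 103, 93.6 and 103 in NC RIC, and 121, 104, 123, 103 and 99.5 in NC sham. It was called higher only in conditioned mice, with 0.29 (SE 0.0862, adjusted p = 0.00541) as deposited and -0.17 with median-ratio scaling. Kng1, which encodes kininogen, had 637 ± 97.8 FPKM in CDAHFD RIC, 595 ± 26.1 in CDAHFD sham, 471 ± 121 in NC RIC and 496 ± 37.6 in NC sham, with a difference of 0.26 (adjusted p = 0.0917) in sham and 0.46 (adjusted p = 0.00899) in conditioned mice, the second being -0.01 with median-ratio scaling. Reads of Kng1 and its near copy Kng2 can be divided between them, and Klkb1 shares its strand and part of its span with Gm45753.

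Tissue factor (F3), the membrane protein that starts clotting after injury, was low in liver. F3 had 1.99, 1.94, 2.53 and 4.09 FPKM in CDAHFD RIC, 2.67, 2.53, 2.96, 1.6 and 1.81 in CDAHFD sham, 1.06, 1.32, 1.25, 1.11 and 1.01 in NC RIC, and 1.61, 1.26, 0.887, 1.35 and 1.7 in NC sham. CDAHFD sham and NC sham overlapped, CDAHFD RIC lay wholly above NC RIC, and the difference was 0.48 (SE 0.146, adjusted p = 0.00613) in sham and 0.73 (SE 0.155, adjusted p = 0.000402) in conditioned mice. With quantile normalization the sham value was -0.06 and the conditioned value 0.23 (adjusted p = 0.204).

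The vitamin K dependent proteases of clotting divided into those that fell and those that did not. F9, the factor IX gene at chrX:59999464-60030759, had 101, 83.3, 83.8 and 68.8 FPKM in CDAHFD RIC, 54.3, 75.7, 54.6, 72.6 and 66.7 in CDAHFD sham, 144, 153, 143, 144 and 146 in NC RIC, and 127, 143, 133, 151 and 130.0 in NC sham. Every CDAHFD sample lay below every NC sample, with a difference of -1.08 (SE 0.104, adjusted p = 2.8e-08) in sham and -0.8 (SE 0.11, adjusted p = 3.98e-06) in conditioned mice. F7, the protease that works with tissue factor, had 20.0, 16.2, 12.6 and 20.1 FPKM in CDAHFD RIC, 16.5, 13.3, 13.7, 15.4 and 15.1 in CDAHFD sham, 19.1, 18.7, 24.7, 20.0 and 22.6 in NC RIC, and 23.8, 22.8, 27.7, 17 and 20.6 in NC sham. It fell in sham mice (-0.55, SE 0.13, adjusted p = 0.000835) without overlap and was not called in conditioned mice (-0.29, adjusted p = 0.0723). There it was called under median-ratio scaling, quantile normalization and without CDAHFD RIC sample 1 (-0.36, adjusted p = 0.037) or 4. Prothrombin (F2) and factor X (F10) were not called on diet. F2 had 189, 149, 153 and 171 FPKM in CDAHFD RIC, 207, 159, 184, 184 and 176 in CDAHFD sham, 173, 160.2, 198, 149.7 and 173 in NC RIC, and 193, 183, 202, 181 and 164 in NC sham. F10, which lies beside F7 on chromosome 8, had 72.9, 56.1, 54.6 and 68.4 FPKM in CDAHFD RIC, 81.8, 63.1, 73.3, 66.1 and 75.5 in CDAHFD sham, 59.8, 55.8, 73.5, 50.7 and 64.7 in NC RIC, and 81.5, 76.9, 80.8, 62.9 and 63 in NC sham. Their sham diet differences were -0.02 (95% confidence interval -0.22 to 0.17) for F2 and -0.02 (95% confidence interval -0.26 to 0.22) for F10, and both were called lower with median-ratio scaling (-0.49 and -0.48).

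Of the cofactor F5 and the carrier subunit F13b, only the second fell. F5, which speeds the making of thrombin, had 71.5, 67.3, 55.9 and 66.9 FPKM in CDAHFD RIC, 58.2, 64.3, 55.4, 62.7 and 60.0 in CDAHFD sham, 42, 45.5, 59.1, 42.7 and 52.7 in NC RIC, and 59.5, 58.4, 56.3, 51.3 and 56.9 in NC sham. It was not called in sham mice (0.09, adjusted p = 0.397) and was called higher in conditioned mice (0.43, SE 0.0988, adjusted p = 0.000755), which became -0.03 with median-ratio scaling. F13b, the carrier subunit of factor XIII at chr1:139501702-139523752, had 96.4, 78.6, 78.8 and 62.6 FPKM in CDAHFD RIC, 27.7, 65.3, 36.5, 45 and 51.3 in CDAHFD sham, 119, 123, 99.1, 123 and 112 in NC RIC, and 88.6, 100.4, 107, 122 and 95.3 in NC sham. CDAHFD samples lay below NC samples of the same procedure, with a difference of -1.22 (SE 0.169, adjusted p = 2.98e-06) in sham and -0.55 (SE 0.179, adjusted p = 0.0109) in conditioned mice, the second not called with a common sum (-0.34, adjusted p = 0.106).

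The 3 fibrinogen chains, whose genes are among the highest liver messages, fell together in sham mice. Fgg had 1235, 848, 913 and 887 FPKM in CDAHFD RIC, 561, 789, 619.7, 841 and 838 in CDAHFD sham, 1843, 1429.5, 1876, 1609 and 1899 in NC RIC, and 1325, 1459, 1622, 1406 and 1504 in NC sham. Its difference was -1.02 (SE 0.128, adjusted p = 8.08e-07) in sham mice, with no overlap, and -0.84 (SE 0.135, adjusted p = 2.26e-05) in conditioned mice. Fgb had 851, 635, 675 and 598 FPKM in CDAHFD RIC, 480.2, 572, 494, 572 and 605 in CDAHFD sham, 1232, 903, 1204, 1049 and 1205 in NC RIC, and 864, 911, 1099, 988 and 935 in NC sham. Its difference was -0.82 (SE 0.11, adjusted p = 1.97e-06) in sham and -0.7 (SE 0.116, adjusted p = 3.25e-05) in conditioned mice. In conditioned mice neither was called with quantile normalization (Fgg -0.26, adjusted p = 0.189; Fgb -0.28, adjusted p = 0.095). Fga had 777, 545, 525 and 596 FPKM in CDAHFD RIC, 397, 595, 428, 474 and 575 in CDAHFD sham, 779, 544, 876, 578 and 887 in NC RIC, and 741, 821, 733, 595 and 724 in NC sham. It fell least (-0.56, SE 0.155, adjusted p = 0.00325, in sham mice), was not called in conditioned mice (-0.25, adjusted p = 0.181), and was not called in sham mice with quantile normalization (-0.13, adjusted p = 0.509). The ratio of Fgg to Fga was 1.59 ± 0.105 in CDAHFD RIC, 1.48 ± 0.170 in CDAHFD sham, 2.41 ± 0.289 in NC RIC and 2.04 ± 0.259 in NC sham. All CDAHFD values (1.77 or less) were below all NC values (1.78 or more). Together the 3 genes took 0.520 ± 0.0839% of all FPKM in CDAHFD RIC, 0.378 ± 0.0710% in CDAHFD sham, 0.714 ± 0.1096% in NC RIC and 0.641 ± 0.0411% in NC sham.

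The fibrinogen genes lie within 42.1 kb at chr3:83007724-83049863, Fgg and Fga on the plus strand and Fgb on the minus strand. Their promoters are shown because the 3 genes fell together on diet, with the same window, source and capitals as above: Fgg at chr3:83007474-83007773, Fga at chr3:83025903-83026202 and Fgb at chr3:83049814-83050113.
Fgg: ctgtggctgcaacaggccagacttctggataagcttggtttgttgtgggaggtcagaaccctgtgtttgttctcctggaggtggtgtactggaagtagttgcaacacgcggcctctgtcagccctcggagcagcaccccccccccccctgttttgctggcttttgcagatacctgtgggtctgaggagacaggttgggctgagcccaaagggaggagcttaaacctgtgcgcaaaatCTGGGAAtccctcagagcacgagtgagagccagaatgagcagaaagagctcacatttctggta
Fga: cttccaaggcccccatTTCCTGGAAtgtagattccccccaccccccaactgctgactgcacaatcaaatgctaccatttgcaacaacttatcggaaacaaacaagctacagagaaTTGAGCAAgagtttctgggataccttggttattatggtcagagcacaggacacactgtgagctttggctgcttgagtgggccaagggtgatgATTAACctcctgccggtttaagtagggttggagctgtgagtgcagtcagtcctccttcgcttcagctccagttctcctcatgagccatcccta
Fgb: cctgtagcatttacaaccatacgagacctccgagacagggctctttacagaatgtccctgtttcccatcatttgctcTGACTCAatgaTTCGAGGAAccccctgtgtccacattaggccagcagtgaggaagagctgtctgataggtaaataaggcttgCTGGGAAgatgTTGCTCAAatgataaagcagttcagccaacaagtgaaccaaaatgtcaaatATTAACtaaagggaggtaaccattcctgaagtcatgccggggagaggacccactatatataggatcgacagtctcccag
Fgb holds matches to 5 motifs (AP-1, STAT, interleukin 6 response element, C/EBP and HNF1), Fga to 3 (STAT, C/EBP and HNF1) and Fgg to the interleukin 6 response element alone. Acute phase genes, to which fibrinogen is counted in textbooks, moved the other way in these livers. All 11 of 11 listed genes, among them Saa1, Hp and Orm2, were called higher in CDAHFD sham than in NC sham. Their differences had a median of 1.65 and a lowest value of 0.37. Beside them, 63.9% of all tested genes were called higher, with a median of 0.45. Their summed level was 9014 to 11496 FPKM in CDAHFD RIC, 9762 to 13066 in CDAHFD sham, 4524 to 5872 in NC RIC and 4473 to 5523 in NC sham. Hepatocyte markers moved with the genes that fell, with 6 of 9 tested called lower and none higher in CDAHFD sham against NC sham. The share of all tested genes was 10.3% called lower and 63.9% higher. Serpina1e is in this list and also in the list of other clotting genes below. The part of hepatocytes in the falls was not tested.

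Of the 5 inhibitors of clotting, Serpind1 and Pros1 were called lower on diet in sham mice. Antithrombin (Serpinc1), which blocks thrombin and factor Xa, had 98.1, 82.5, 89.9 and 95.1 FPKM in CDAHFD RIC, 119, 101, 101, 108 and 107 in CDAHFD sham, 106, 99.8, 115, 96.4 and 108 in NC RIC, and 114, 99, 119, 115 and 102 in NC sham. Protein C (Proc), which shuts off factors V and VIII once activated, had 98.1, 78.1, 82.7 and 95 FPKM in CDAHFD RIC, 121, 84.7, 113, 108 and 99.7 in CDAHFD sham, 102, 111, 116, 109 and 109 in NC RIC, and 117, 109.7, 128, 109 and 107 in NC sham. The groups overlapped between diets in sham mice for both, with differences of -0.03 (95% confidence interval -0.19 to 0.13) for Serpinc1 and -0.12 (95% confidence interval -0.31 to 0.07) for Proc, and both were called lower in conditioned mice (-0.2, adjusted p = 0.0341, and -0.31, adjusted p = 0.00903). The call of Serpinc1 there was lost in 7 of 30 alternatives and that of Proc in 1. With a common sum the differences were 0 (adjusted p = 0.978) and -0.11 (adjusted p = 0.258). Heparin cofactor II (Serpind1) had 144 ± 55.6 FPKM in CDAHFD RIC, 102 ± 15.3 in CDAHFD sham, 163 ± 22.4 in NC RIC and 147 ± 11.9 in NC sham and fell in sham mice (-0.54, SE 0.165, adjusted p = 0.00628). In conditioned mice its difference was -0.24 (adjusted p = 0.217), and -0.48 (adjusted p = 0.0039) without CDAHFD RIC sample 1. Proz, which helps to inhibit factor Xa, had 37.7 ± 8.54 FPKM in CDAHFD RIC, 37.8 ± 2.58 in CDAHFD sham, 40.4 ± 3.25 in NC RIC and 40.1 ± 3.92 in NC sham and was not called in any comparison with the values as deposited. With median-ratio scaling Serpinc1, Proc and Proz were called lower in sham mice too (-0.5, -0.59 and -0.54). Proz was called lower in conditioned mice without CDAHFD RIC sample 1 (-0.25, adjusted p = 0.0322). Protein S (Pros1), the cofactor of protein C, was called lower on diet in sham mice and higher in conditioned mice, and is described with conditioning.

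In the plasminogen system the zymogen fell while its activator and the activator's receptor rose. Plasminogen (Plg) had 313, 219, 222 and 277 FPKM in CDAHFD RIC, 243, 192, 211, 250.2 and 198 in CDAHFD sham, 330.0, 315, 431, 301 and 347 in NC RIC, and 373, 366, 401, 339.7 and 316 in NC sham, a difference of -0.72 (SE 0.118, adjusted p = 2.17e-05) in sham mice, where the groups did not overlap. In conditioned mice its call was lost with a common sum (-0.22, adjusted p = 0.0956). Cpb2, whose product protects fibrin from plasmin, had 166 ± 32.2 FPKM in CDAHFD RIC, 137 ± 21.6 in CDAHFD sham, 235 ± 9.85 in NC RIC and 226 ± 14.8 in NC sham, and fell by 0.73 (SE 0.112, adjusted p = 9.98e-06). Urokinase (Plau) had 4.05, 6.21, 2.03 and 4.3 FPKM in CDAHFD RIC, 6.98, 4.31, 7.18, 6.26 and 4.59 in CDAHFD sham, 0.0388, 0.0672, 0.102, 0.0629 and 0 in NC RIC, and 0, 0.166, 0.184, 0.0531 and 0.286 in NC sham. Its receptor Plaur had 2.2, 3.89, 1.74 and 3.1 FPKM in CDAHFD RIC, 3.57, 3.24, 3.69, 3.42 and 3.27 in CDAHFD sham, 0.0535, 0.0774, 0, 0 and 0 in NC RIC, and 0.0662, 0, 0.0437, 0 and 0.102 in NC sham. Tissue plasminogen activator (Plat) had 0.862, 1.28, 0.487 and 1.43 FPKM in CDAHFD RIC, 1.52, 1.15, 2.2, 1.7 and 1.27 in CDAHFD sham, 0, 0.0341, 0.0489, 0 and 0.0397 in NC RIC, and 0.0697, 0.0222, 0.0371, 0.00807 and 0.00945 in NC sham. For these 3 genes every CDAHFD sample was above every NC sample. The differences were 2.58 (SE 0.17, adjusted p = 1.56e-10) for Plau and 2.09 (SE 0.111, adjusted p = 8.41e-12) for Plaur in sham mice. Plau and Plaur reached the mean of 1 FPKM only through the CDAHFD groups, so their calls are no support, and Plat did not reach it. Plaur and Plau are also made by macrophages, whose markers moved with diet as given above.

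**Figure D3:**
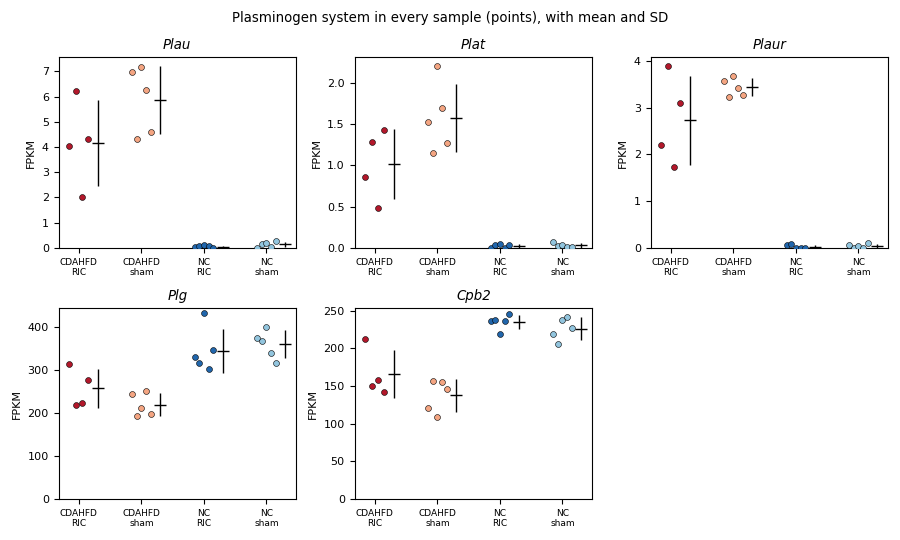
FPKM of 5 genes of plasminogen activation in every sample, with mean and SD beside the points. Plau, Plat and Plaur are near 0 in all NC samples and above them in all CDAHFD samples, while Plg and Cpb2 are lower in most CDAHFD samples.

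Of the other genes of clotting and fibrinolysis, 26 of 38 listed were tested. In CDAHFD sham against NC sham 10 rose and 9 fell, with a median of 0.02. The share of all genes was 63.9% called higher and 10.3% lower. Anxa2, a cell surface binder of plasminogen activation, rose most (4.59, adjusted p = 2.82e-15), and Thbd, the thrombin receptor of vessel walls, rose by 0.96 (adjusted p = 1.67e-06). Serpina1e, of the alpha-1-antitrypsin family, fell most (-6.55, adjusted p = 3.01e-17), and its relatives Serpina1d and Serpina1c had -2 and -1.65. Reads of these near copies can be divided between them. F8, F13a1, Tfpi and Vwf were below a mean of 1 FPKM and were not tested. Tfpi, the tissue factor inhibitor, had 1.11 ± 0.0815 FPKM in CDAHFD RIC, 1.82 ± 0.393 in CDAHFD sham, 0.328 ± 0.14 in NC RIC and 0.534 ± 0.25 in NC sham. F8 had 1.15 ± 0.283 FPKM in CDAHFD RIC, 0.764 ± 0.268 in CDAHFD sham, 0.488 ± 0.192 in NC RIC and 0.605 ± 0.236 in NC sham.

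Conditioning on the diet, the question of the series, left its calls in clotting genes. Between CDAHFD RIC and CDAHFD sham 6 of the 23 clotting and fibrinolysis genes rose (F13b, Klkb1, F9, Fgg, Pros1 and Fgb), 1 fell (Serpinc1), and 0 of the 23 complement genes were called by limma at an adjusted p under 0.05. At an unadjusted p under 0.05 in limma there were 0 complement genes and 12 clotting and fibrinolysis genes. The share of all tested genes at that threshold was not counted, but it is at least the 27.3% called at the adjusted threshold. At the adjusted threshold the background was 8.72% of all genes called higher and 18.6% lower. The median difference was 0.12 for clotting and fibrinolysis, -0.04 for complement and -0.08 for all tested genes. Groups did not overlap for 3 of the 46 genes (Klkb1, Fgg and Serpinc1), against 18.4% of all genes. Whether the arms differ from each other was not tested. As deposited, 31.9% of the called genes were higher. That share became 55.5% when all samples had a common sum, 51.1% for median-ratio scaling, and 50.5% after quantile normalization. Under these scalings 9, 7 and 7 clotting and fibrinolysis genes were called higher and 0 lower, in the same order.

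F13b had the largest rise, 0.84 (SE 0.179, adjusted p = 0.00299), or 1.75-fold by mean FPKM. Of its values given above, 3 of 4 in CDAHFD RIC lay above every CDAHFD sham value, and the groups overlapped through the lowest CDAHFD RIC value of 62.6 and the highest CDAHFD sham value of 65.3 FPKM. Klkb1 rose by 0.39 (SE 0.0978, adjusted p = 0.00786), 1.33-fold, with no overlap between 32.9 to 47.9 FPKM in CDAHFD RIC and 26.9 to 31.0 in CDAHFD sham. F13b and Klkb1 were called under all 30 alternatives tried. In the diet comparison of sham mice, which shares the CDAHFD sham samples, their differences were -1.22 and -1.18, and those of F9, Fgg, Fgb and Pros1 were -1.08, -1.02, -0.82 and -0.31.

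F9 rose by 0.37 (SE 0.11, adjusted p = 0.0189), with 68.8 to 101 FPKM in CDAHFD RIC and 54.3 to 75.7 in CDAHFD sham. Fgg rose by 0.41 (SE 0.135, adjusted p = 0.03) without overlap, and Fgb by 0.33 (SE 0.116, adjusted p = 0.041) with slight overlap, while Fga differed by 0.31 (SE 0.165, adjusted p = 0.173). In all 3 chains CDAHFD RIC sample 1 was the highest. Without it the difference was 0.28 (adjusted p = 0.0736) for F9, 0.29 (adjusted p = 0.116) for Fgg and 0.23 (adjusted p = 0.154) for Fgb. F9, Fgg and Fgb also lost their call without CDAHFD sham sample 1 or without sample 3, and Fga gained one (0.48, adjusted p = 0.0476) without CDAHFD sham samples 2 and 5. Serpinc1 fell by 0.23 (SE 0.0813, adjusted p = 0.0433), and lost the call in 14 of 30 alternatives, among them every other scaling (adjusted p up to 0.292). Serpind1 (0.44, adjusted p = 0.0696), Cpb2 (0.26, adjusted p = 0.103) and Plg (0.23, adjusted p = 0.183) were not called as deposited. Serpind1 was called higher under all 3 other scalings (0.52 to 0.55, adjusted p up to 0.0458) and without CDAHFD RIC sample 2 or 3. Plg was called with a common sum (0.34) and quantile normalization (0.37). Cpb2 was called with a common sum (0.38) and without CDAHFD sham samples 2 and 5 (0.37, adjusted p = 0.0436). Without those 2 samples Proc was called lower (-0.37, adjusted p = 0.00708, against -0.25 and 0.0691 with them).

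**Figure D4:**
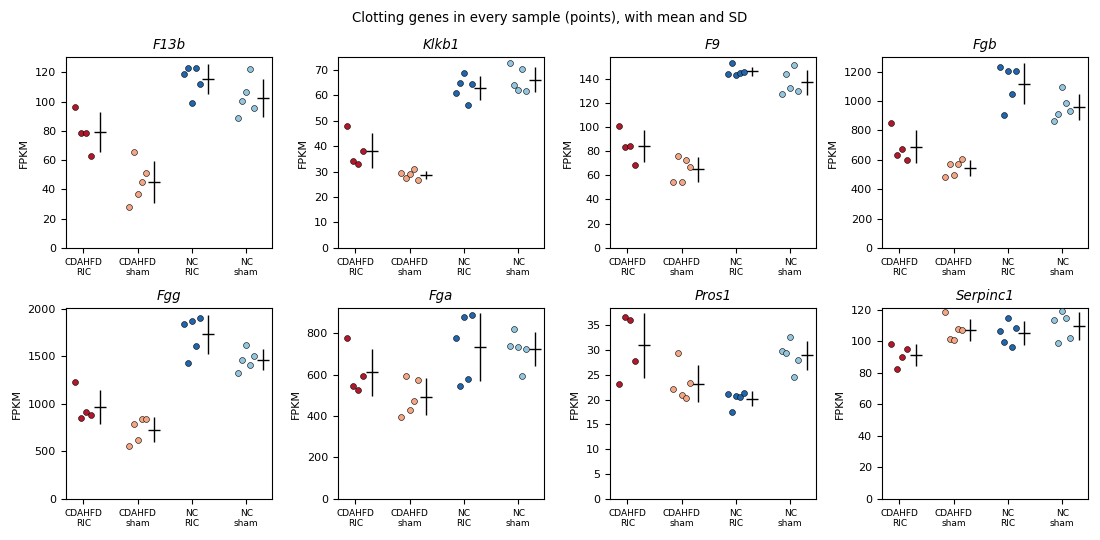
FPKM of 8 clotting genes in every sample, with mean and SD beside the points: the 7 called between CDAHFD RIC and CDAHFD sham, and Fga. In Klkb1, F9, Fgb and Fgg the CDAHFD RIC points lie between most CDAHFD sham points and the NC points. F13b is alike except that its highest CDAHFD RIC point lies within the NC sham range.

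Pros1 differed with conditioning in opposite directions on the diets, and the difference between the diets was called. The gene, at chr16:62854307-62929346, had 23.3, 36.6, 36 and 27.8 FPKM in CDAHFD RIC, 22.2, 29.4, 20.9, 20.4 and 23.4 in CDAHFD sham, 21.1, 17.4, 20.8, 20.5 and 21.3 in NC RIC, and 29.8, 29.3, 32.7, 24.7 and 28 in NC sham. On CDAHFD 2 of 4 conditioned samples lay above every sham sample and the other 2 within the sham range, and every NC RIC sample lay below every NC sham sample. The difference was 0.38 (SE 0.128, adjusted p = 0.0333) on CDAHFD and -0.49 (SE 0.121, adjusted p = 0.0519) on chow. The interaction, the CDAHFD difference minus the chow difference, was 0.88 (SE 0.176, adjusted p = 0.00747), and it was called in all 29 alternatives that apply to it. The diet difference of Pros1 was -0.31 (SE 0.121, adjusted p = 0.0279) in sham mice and 0.57 (SE 0.128, adjusted p = 0.000688) in conditioned mice. The sham call was lost in 6 of 30 alternatives (adjusted p up to 0.104): a common sum, and without NC sham sample 1 or 3 or CDAHFD sham sample 1, 3 or 4. The call in conditioned mice was lost with median-ratio scaling (0.11, adjusted p = 0.483) and quantile normalization (0.16, adjusted p = 0.318). On CDAHFD alone the call was lost in 7 of 30 alternatives, among them those without CDAHFD RIC sample 2 (0.30, adjusted p = 0.114) or sample 3 (0.31, adjusted p = 0.116). On chow it was gained in 9 of 30. These include the fits without CDAHFD RIC sample 1 (-0.49, adjusted p = 0.0334) or CDAHFD sham samples 2 and 5 (-0.49, adjusted p = 0.0438).

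Klkb1 was the only other gene of the 46 with a called interaction, 0.46 (adjusted p = 0.0449), from 0.39 on CDAHFD and -0.07 on chow, and that call held in 10 of 29 alternatives. It was lost without CDAHFD RIC sample 1 (0.35, adjusted p = 0.0723) or CDAHFD sham samples 2 and 5 (0.41, adjusted p = 0.0752). Of all tested genes 3.59% had a called interaction above 0 and 3.13% below 0. F13b had an interaction of 0.67 (adjusted p = 0.106), which was called without CDAHFD sham sample 2 and without samples 2 and 5 (0.94, adjusted p = 0.00939).

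On chow, conditioning changed none of the 46 genes at an adjusted p under 0.05, where limma called 0.321% of all tested genes higher and 0.86% lower. At an unadjusted p under 0.05, 5 of the 46 differed (Pros1, F11, Masp2, F10 and F5), all lower in NC RIC. How many of all tested genes passed that threshold was not counted, so these 5 have no background beside them. The largest differences after Pros1 were F11 (-0.54, SE 0.174, adjusted p = 0.131), at 12.4 ± 2.18 FPKM in NC RIC and 18.6 ± 4.22 in NC sham, and Masp2 (-0.31, SE 0.0974, adjusted p = 0.127), at 19.2 ± 1.33 FPKM in NC RIC and 24.0 ± 2.57 in NC sham. The median was -0.08 for the 46 genes and -0.06 for all genes.

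**Figure D5:**
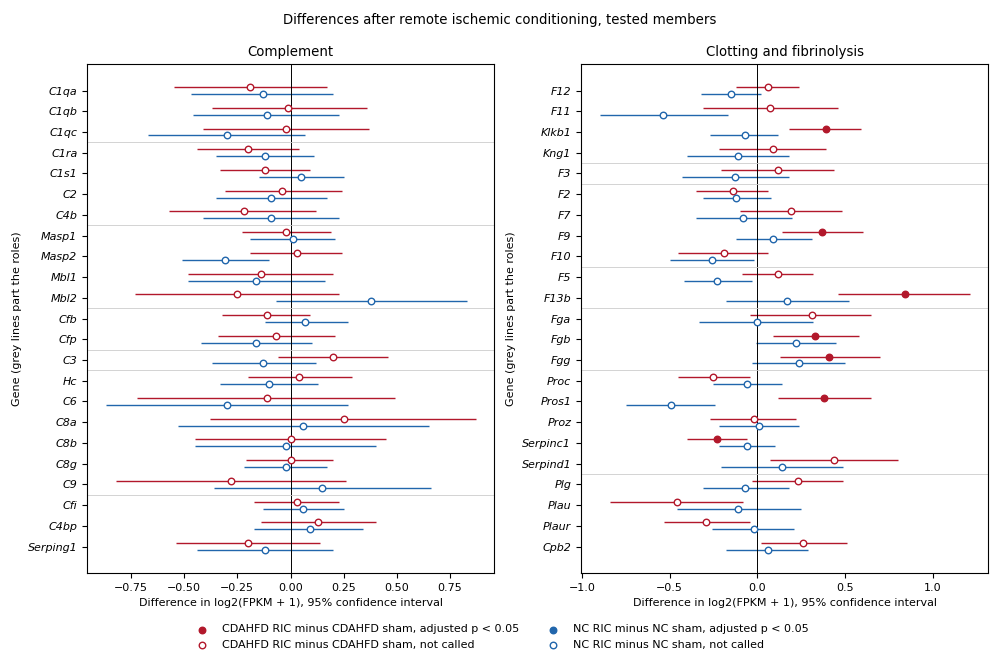
Conditioning differences of the 46 tested genes in log2(FPKM + 1), by role, on CDAHFD (CDAHFD RIC minus CDAHFD sham) and on chow (NC RIC minus NC sham); points are estimates, bars are 95% confidence intervals and filled points passed an adjusted p under 0.05. The filled points, 6 to the right of 0 and Serpinc1 to the left, are all on CDAHFD and all in the clotting panel.

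Complement with conditioning on CDAHFD had wide intervals in the genes that fell most on diet. The difference was 0.25 (95% confidence interval -0.38 to 0.87) for C8a, 0 (-0.45 to 0.45) for C8b, -0.11 (-0.72 to 0.49) for C6, -0.28 (-0.82 to 0.26) for C9 and -0.25 (-0.73 to 0.23) for Mbl2. In each of these CDAHFD RIC sample 1 was far above the other 3 of its group: C9 was 152 FPKM there and 41.7 to 73.8 in the others, and Mbl2 was 162 and 54.1 to 69.2. Without that sample C9 (-0.67, adjusted p = 0.0125) and Mbl2 (-0.59, adjusted p = 0.0134) were called lower in CDAHFD RIC than in CDAHFD sham, and their interactions were called too (adjusted p = 0.0407 and 0.00951). The C1q chains differed by -0.19 to -0.01, C3 by 0.2 (95% confidence interval -0.06 to 0.46) and Cfb by -0.11 (95% confidence interval -0.32 to 0.09). Of the Kupffer cell markers 3 of 6 rose with conditioning on CDAHFD, against 8.72% of all genes. Among them was Vsig4, itself a complement receptor (0.65 by limma, adjusted p = 0.0446), while all C1q chains were uncalled.

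Outside the 48 genes, conditioning on CDAHFD lowered Vtn (-0.51, adjusted p = 0.0135). Hrg, a plasma protein that binds plasminogen and heparin, rose (0.47, adjusted p = 0.0275). Thbd fell by 0.62 (adjusted p = 0.00334). Among the 48 genes, Plau differed by -0.46 (adjusted p = 0.066; -0.66, adjusted p = 0.015, without CDAHFD sham samples 2 and 5) and Plaur by -0.29 (adjusted p = 0.0781). In the other complement list 3 of 21 tested genes rose (14.3%) and 1 fell (4.76%). In the other clotting list 1 of 26 rose (3.85%) and 5 fell (19.2%). Among all tested genes 8.72% were called higher and 18.6% lower, so the falls in the clotting list were near the background.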

How the data were processed

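Liver RNA of 19 mouse samples was extracted with Trizol and made into libraries with a VAHTS kit, per the labels' protocols; whether strand was kept is not stated there. Per the submitters' processing notes, the build was mm10 and the tools, whose roles are not given there, include HISAT2 2.2.1, Trimmomatic 0.38, DESeq2 1.18.1, FastQC 0.11.9, R 3.4.1 and HTSeq 0.13.5. The authors deposited FPKM for 55335 entries in each sample, used as deposited; 3225 without a gene name were left out. No count model was used, since FPKM are not counts. Values were taken as log2(FPKM + 1), which understates changes of low genes, and genes averaging 1 FPKM or more were tested with limma (version 3.58.1, under R 4.3.3; eBayes with a trend, after lmFit and contrasts.fit; 1 mean per group, 15 residual degrees of freedom, two-sided, Benjamini-Hochberg over all 10577 genes). The fit was tested on simulated data. Tables and plots used python 3.11.15, numpy 2.4.6, pandas 2.3.3, matplotlib 3.10.9 and data.table (version 1.17.8).

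Depth was estimated from FPKM times length in 17957 single-exon genes, whose most common value was taken as 1 read: 19100000 to 26400000 reads in CDAHFD RIC, 15900000 to 21500000 in CDAHFD sham, 16100000 to 21300000 in NC RIC and 17000000 to 21700000 in NC sham. Of values worth about 1 to 3 reads, 23.6% to 28.2% lay within 2% of a whole number, against 8.0% for an even spread, so reads were not recovered and no interval from counts is given. FPKM summed to 418945 to 443297 in CDAHFD RIC, 441294 to 495052 in CDAHFD sham, 491393 to 512036 in NC RIC and 482227 to 499036 in NC sham. No 2 samples were duplicates: the most alike pair shared identical values above 0 in 0.00945% of tested genes.

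The 48 genes and all gene lists were chosen with earlier results of these data known, so no p is given for a list. Described with every sample are genes called with conditioning or in the interaction, the 4 largest called diet differences of each arm, and a set list; the others are given by mean and SD. Of genes outside the 48, the largest changes per list and 10 set genes could be named, and a subset was named. The hepatocyte list holds 10 markers, of which 9 were tested. Lists of stellate, endothelial, bile duct, platelet, neutrophil, lymphocyte, red blood cell, fat and pancreas markers were also read: on diet in sham mice 7 of 7, 5 of 6, 3 of 3, 1 of 1, 3 of 3, 0 of 0, 0 of 5, 1 of 2 and 0 of 1 tested markers were called higher, and 4 of 5 red blood cell markers lower. Among all tested genes 63.9% were called higher and 10.3% lower in that comparison. Summed neutrophil markers averaged 0.611 FPKM in NC sham and 1.33 in NC RIC, and summed platelet markers 0.802 and 0.696. The tested markers of these 2 lists reached the mean for testing only through the CDAHFD groups, so their calls are no support. Markers of other lists may have done so too. Positions are from the GENCODE annotation of GRCm38, and promoters from RefSeq without chr18, where 36 of 48 genes matched, with 38 promoters. Alternatives were pseudocounts of 0.1 and 0.01, no filter, a mean of at least 5 FPKM, 3 scalings, the replicate number as a block, array weights, only the groups compared, each sample left out, and CDAHFD sham samples 2 and 5 left out. Some genes of the other lists are not reported here by name.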

Additional observations from a re-analysis of the deposited data

Results flagged for a closer look

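A test for a sample far from the rest of its group (Dixon's test at the 95% level) was applied to 191 sets of values, each 1 gene in 1 group, and marked 9 of them, or 4.71%, where chance gives about 5%. CDAHFD RIC sample 1 was marked 3 times, as the highest of its group: Mbl2 was 162 FPKM there with 69.2 next, Cfi 264 with 213 next, and Fgg 1235 with 913 next. CDAHFD sham sample 3 was highest in C1qb (140.3 FPKM, 117 next) and lowest in C8b (18.7 FPKM, 25.2 next). CDAHFD sham sample 1 was highest in F12 (139 FPKM, 115 next) and in Cfd (0.134 FPKM, with 0 in the other 4). NC RIC sample 3 was highest in Cfd (0.414 FPKM, 0.134 next), and NC RIC sample 2 was lowest in Pros1 (17.4 FPKM, 20.5 next).

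The conditioning difference itself differed between diets in 2 genes by limma's interaction term, by 0.88 for Pros1 (adjusted p = 0.00747) and by 0.46 for Klkb1 (adjusted p = 0.0449). Both are positive, so the log2 difference of CDAHFD RIC from CDAHFD sham was above that of NC RIC from NC sham.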

How the results depend on the processing

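In CDAHFD sham against NC sham median-ratio scaling gave 4 complement genes higher and 14 lower and 19 clotting and fibrinolysis genes lower, and a mean of at least 5 FPKM left 0 clotting and fibrinolysis genes higher. In CDAHFD RIC against NC RIC median-ratio scaling gave 4 higher and 14 lower for complement and 3 higher and 15 lower for clotting and fibrinolysis, quantile normalization 3 clotting and fibrinolysis genes higher, a common sum 5 lower, and a mean of at least 5 FPKM 4 higher. Signs turned under median-ratio scaling for C1ra (-0.15), Masp1 (-0.02), Cfb (-0.08) and C3 (-0.1) in sham mice and for Masp1 (-0.05), Masp2 (-0.19), F12 (-0.17), Kng1 (-0.01) and F5 (-0.03) in conditioned mice, and under quantile normalization for Masp1 (-0.08) and F3 (-0.06) in sham mice and Masp1 (-0.09) and Masp2 (-0.16) in conditioned mice.

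Between CDAHFD RIC and CDAHFD sham the 6 clotting and fibrinolysis genes called higher became 3 with no filter (more genes tested) and 2 with only the groups compared (fewer samples), and ranged from 2 to 6 with single samples left out. There were 2 without CDAHFD sham sample 1 or 3 and 3 without CDAHFD RIC sample 1. The 1 called lower became 0 with no filter, a common sum, median-ratio scaling, quantile normalization or only the groups compared, 3 without CDAHFD sham samples 2 and 5, and 0 to 3 with single samples left out. In place of 0 complement genes called lower there was 1 (C1ra) without CDAHFD sham samples 2 and 5, and 0 to 2 with single samples left out (Mbl2 and C9 without CDAHFD RIC sample 1). Between NC RIC and NC sham 1 clotting and fibrinolysis gene (Pros1) was called lower, in place of 0, with a pseudocount of 0.1 or 0.01, a mean of at least 5 FPKM, array weights, only the groups compared and without CDAHFD sham samples 2 and 5, and 0 to 1 with single samples left out. For the interaction 1 clotting and fibrinolysis gene was called higher, in place of 2, with a pseudocount of 0.01 or no filter, and 1 to 2 with single samples left out, where complement genes called lower ranged from 0 to 2.

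Whether the replicate numbers pair the samples cannot be settled here, since weak correlations do not exclude a pairing. Same-numbered samples of different groups had correlations of their deviations of -0.174 to 0.176 (median 0.026) over 27 pairs. Samples with different numbers had -0.327 to 0.233 (median 0.004) over 108 pairs. Of 19 samples 5 correlated best with their own number. With the number as a replicate block 1 clotting and fibrinolysis gene was called higher in the interaction, and Fgb lost its call with conditioning on CDAHFD (adjusted p = 0.0514). The cause of other changes was not tested. Depth is an estimate, so counting error of low genes such as Cfd and Plat is unknown.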
